A study of Mus musculus with 6 samples.

Results

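The G protein gamma subunits are described here on 6 expression arrays of tissue labelled as whole hippocampus, from mice given ethanol or saline as newborns. The genes were chosen by family: of 10 listed genes, 9 had at least 1 probe row that named no other gene, out of 22180 genes measured in that way, and these 9 genes had 12 rows. Gng13 appeared only in rows that also named Chtf18 and was therefore not measured. The family was picked because of Gng5, whose values were higher in ethanol, so the difference in Gng5 is a description and carries no test. Ethanol pups of the inbred strain C57BL/6J received 2.5 g/kg ethanol in saline under the skin, and control pups, their littermates matched for sex and weight, received saline. On postnatal day 4 and again on day 7 both groups had 2 injections separated by 2 hours. There were 3 ethanol arrays and 3 saline arrays, each holding the joined RNA of 3 mice, from 18 male mice in all per the protocol. The labels give 2 ages, 21 days in the sample characteristics and day 70 in the protocol. Since each array is 1 pool, the tests weigh differences against the spread from pool to pool. The median of all values lay between 6.55 and 6.66 on the 6 arrays. Saline array 1 stood apart from its group: on the first principal component over all rows it scored -19.9, on the side of the ethanol arrays (-19.1 to -1.59), against 23.7 and 32.6 for the other saline arrays.

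A heterotrimeric G protein is an alpha subunit that binds guanine nucleotide and a beta-gamma dimer that does not come apart. When a receptor on the cell surface is activated, the alpha subunit and the dimer separate and each acts on its own targets. The dimer opens inwardly rectifying potassium channels of the GIRK type, restrains presynaptic calcium channels and acts on phospholipase C beta, adenylyl cyclases and phosphoinositide 3-kinase gamma, and in neurons much inhibitory signalling from GABA-B, opioid and adenosine receptors runs through it. The gamma subunit is a small protein that carries a lipid at its C-terminus and so holds the dimer at the membrane. Farnesyl or geranylgeranyl transferase attaches the lipid, and the CAAX enzymes Rce1 and Icmt finish it.

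Gng5 lies on mouse chromosome 3, from 146499836 to 146505543 on build GRCm38, and starts beside Spata1, which ends at 146499793. The RefSeq promoter windows of GRCm38, 250 bases before and 50 bases after a gene's start, are shown for Gng5 and, for contrast in base composition, for Gng3, the neuronal member on chromosome 19. They run 5′ to 3′ on the strand of the gene, and capitals mark GC boxes, the letters GGGCGG or, on the other strand, CCGCCC, which are known as the core motif of the transcription factor Sp1.
Gng5, chr3:146499586-146499885, plus strand: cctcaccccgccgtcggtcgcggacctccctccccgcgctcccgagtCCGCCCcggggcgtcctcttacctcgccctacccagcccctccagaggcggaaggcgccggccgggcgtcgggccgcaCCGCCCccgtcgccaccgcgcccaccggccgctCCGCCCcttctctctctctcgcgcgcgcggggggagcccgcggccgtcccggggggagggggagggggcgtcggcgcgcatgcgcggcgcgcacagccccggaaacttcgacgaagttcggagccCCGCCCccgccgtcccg
Gng3, chr19:8839197-8839496, minus strand: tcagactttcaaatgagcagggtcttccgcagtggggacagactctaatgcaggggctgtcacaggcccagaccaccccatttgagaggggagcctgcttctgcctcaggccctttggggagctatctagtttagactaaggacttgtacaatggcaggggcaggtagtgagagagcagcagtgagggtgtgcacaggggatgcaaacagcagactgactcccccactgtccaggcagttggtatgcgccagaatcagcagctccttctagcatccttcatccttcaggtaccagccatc
The Gng5 window holds 52 CpG dinucleotides, whereas the Gng3 window holds 2 and the median window of 32851 holds 7. A GC box stands 4 times in the Gng5 window and 0 times in the Gng3 window, and 35.7% of all windows hold at least 1. Gng5 does not stand alone in this: 1 window each of Gng7, Gng10, Gng12 and Gng4 holds 5, 3, 3 and 2, so that 5 of the 7 members with a window have a GC box. The windows of Gng12 hold 34 and 35 CpG dinucleotides, and that of Gng10 holds 27. Both windows of Spata1, a gene on the minus strand, overlap that of Gng5, by 142 and 182 bases. A motif match describes letters and is not a binding site.

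For the labelled tissue, markers of hippocampal neurons stood above the median of all rows in 9 of 14 measured genes, whereas those of cerebellar neurons did so in 13 of 13. Gabra6, of cerebellar granule cells, averaged 12.21 ± 0.09 on ethanol arrays and 12.13 ± 0.09 on saline arrays (SD, n = 3 each), and the lowest cerebellar marker, Barhl1, averaged 7.37 ± 0.07 on ethanol arrays and 7.54 ± 0.07 on saline arrays. Calb1, on both lists, was the brightest hippocampal marker. Next came Neurod2 and Camk2a, of forebrain and other neurons, at 10.62 ± 0.07 and 9.73 ± 0.02 on ethanol arrays and 10.55 ± 0.03 and 9.79 ± 0.32 on saline arrays. Prox1, of dentate granule cells, averaged 8.23 ± 0.09 on ethanol arrays and 8.13 ± 0.12 on saline arrays. Dsp, C1ql2 and Emx1, of the same list, lay below the median of all rows. They averaged 6.35 ± 0.16, 6.49 ± 0.04 and 6.47 ± 0.08 on ethanol arrays. On saline arrays they averaged 6.51 ± 0.06, 6.45 ± 0.12 and 6.31 ± 0.15. The dimmest were Tbr1, of telencephalic pyramidal neurons, at 5.72 ± 0.21 on ethanol arrays and 5.76 ± 0.08 on saline arrays, and Spink8, of CA1, at 5.70 ± 0.03 on ethanol arrays and 5.72 ± 0.14 on saline arrays (SD, n = 3 each). Bright cerebellar markers go against a label of hippocampus alone. Levels of different probes cannot be set against each other, so the makeup of the tissue was not estimated.

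The 3 rows of Gng5 were all higher in ethanol, by 0.40 on the log2 scale in one row and by less than 0.20 in the others. The row 17312086 stood at 8.07, 8.29 and 7.96 on ethanol arrays 1 to 3, against 7.69, 7.77 and 7.66 on saline arrays 1 to 3. Every ethanol array lay above every saline array, and ethanol array 2 was the highest. The difference was 0.40 ± 0.10 (SE of the limma fit, 3 arrays against 3), a 1.32-fold higher value in ethanol.

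The row 17547941 stood at 9.61, 9.65 and 9.59 on the ethanol arrays, against 9.56, 9.35 and 9.38 on the saline arrays. The groups again did not overlap, but saline array 1 lay close below ethanol array 3. The difference was 0.19 ± 0.08 (SE). The row 17548694 stood at 7.96, 7.97 and 7.90 on the ethanol arrays, against 7.92, 7.63 and 7.80 on the saline arrays. Here the groups overlapped, since saline array 1 lay above ethanol array 3. The difference was 0.16 ± 0.09 (SE), and without saline array 2 it was 0.09. Over the table, 5.63% of rows naming 1 gene had every ethanol array above every saline array. Gng5 was chosen on this contrast, so nothing is read from its 2 rows without overlap.

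**Figure D1:**
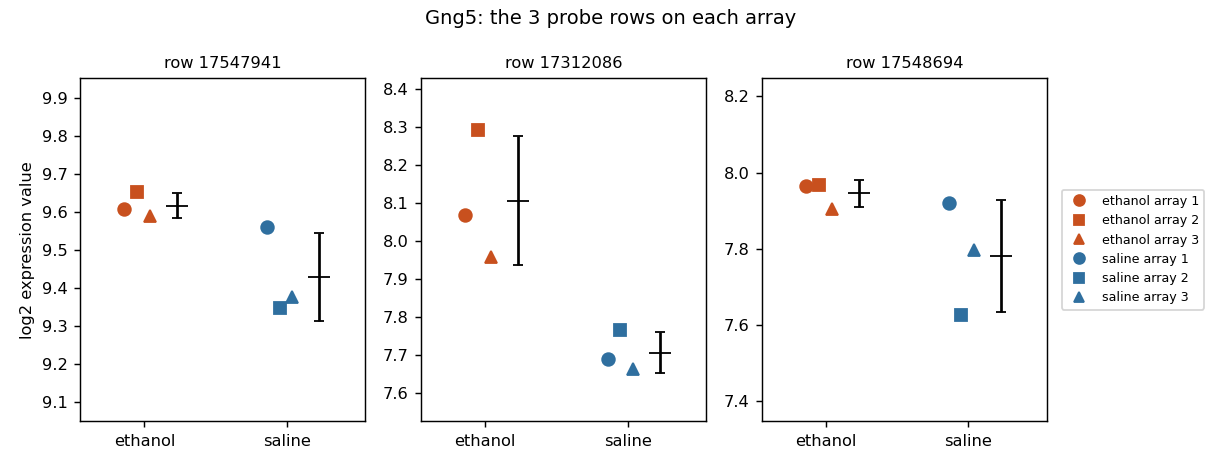
Log2 expression value (vertical axis, the same span in each panel) of the 3 probe rows that name only Gng5, with ethanol arrays on the left and saline arrays on the right of each panel; points are arrays, and bars give the mean ± SD of 3 arrays. Row 17312086 shows the widest gap between the groups, and in the other rows saline array 1 lies close to the ethanol arrays.

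The rows differed in how the saline arrays fell. In rows 17547941 and 17548694 saline array 1 was the highest of its group and saline array 2 the lowest, whereas in row 17312086 saline array 2 was the highest. With each row centred on its own mean, row 17548694 had a root mean square difference of 0.04 from row 17547941 over the 6 arrays, and row 17312086 one of 0.16. Of 12780 other genes brighter on average than the median row, 1.10% had a profile closer to row 17547941 than row 17548694 did, and 77.4% had one closer than row 17312086 did. Genes whose names end in Rik or mark predicted genes were left out of these 12780. All 3 rows carry the annotation of Gng5 alone, but where in the genome their probes lie was not given in the sources used here. Whether these rows, row 17312086 among them, measure the gene on chromosome 3 or copies elsewhere was not settled. Gng5 has 2 pseudogenes in the annotation, Gng5-ps on chromosome 16 and Gm13342 on chromosome 2, and another row names both together with Gng5. That row differed by -0.11 ± 0.09 (SE), opposite in sign to the 3 rows. Its number, 17403543, falls between those of Ctbs (17403533) and Uox (17403551), which lie on either side of Gng5 on chromosome 3. The numbers of the 3 rows naming Gng5 alone do not fall there. Whether row numbers follow position in the genome was not tested. Probes of near-identical copies can bind each other's transcripts, so the Gng5 values are uncertain in that respect.

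The 5 genes whose centred profile lay closest to row 17547941 were Cdip1, Prkca, 2610044O15Rik8, Oip5os1 and Jmjd8, at root mean square differences between 0.023 and 0.025. Prkca is protein kinase C alpha, and Cdip1 is a p53 target linked to cell death. The values of Cdip1 were 9.39, 9.45 and 9.37 in ethanol, against 9.32, 9.09 and 9.11 in saline. Prkca stood at 8.90, 9.00 and 8.96 in ethanol, against 8.88, 8.66 and 8.71 in saline. In both, as in Gng5 row 17547941, saline array 1 was nearest to the ethanol arrays. Both genes were chosen for likeness to that row, so this follows from the choice. The likeness is a description over 6 arrays and says nothing of shared control.

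The genes beside Gng5 were also measured. Spata1, the neighbour whose start faces that of Gng5, stood at 5.82, 5.62 and 5.37 in ethanol, against 5.43, 5.86 and 5.67 in saline, a difference of -0.05 ± 0.15 (SE; limma adjusted p = 0.962). Rpf1, a ribosome production factor on the other side, had values of 7.87, 7.97 and 8.02 in ethanol and 7.76, 7.79 and 8.04 in saline, with a difference of 0.09 ± 0.10 (limma adjusted p = 0.896). The groups overlapped in both. Ssx2ip, a further neighbour, stood at 8.83, 8.83 and 8.82 in ethanol, against 8.73, 8.70 and 8.80 in saline, so its groups did not overlap. Over all genes 5.74% had ethanol wholly above saline. The further neighbours Ssx2ip, Ctbs, Dnase2b and Uox differed by 0.09 ± 0.07, 0.07 ± 0.09, 0.04 ± 0.12 and 0.04 ± 0.10 (SE), and none passed the test. Whether Gng5 differs from its neighbours in this was not tested.

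None of the other members passed the test of ethanol against saline. Over the 9 rows of the other 8 genes, differences ran from -0.05 to 0.16, with SE between 0.07 and 0.12, and adjusted p-values in limma lay between 0.857 and 0.999. No row of the whole table was called either (0% of 41345 rows at an adjusted p under 0.05 in limma), while 5.54% had an unadjusted p under 0.05. Of the 9 member rows 0 had an unadjusted p under 0.05. In 0 of the 9 rows were the groups apart. In the table, beside the 5.63% of rows with ethanol wholly above saline, 4.8% had it wholly below.

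Among members known mainly from neurons, Gng3, which is abundant in brain, had values of 10.57, 10.77 and 10.64 in ethanol, against 10.60, 10.36 and 10.54 in saline. Ethanol array 2 was the highest and saline array 2 the lowest, and the remaining arrays of the groups overlapped. The difference was 0.16 ± 0.10 (SE; limma adjusted p = 0.857, 95% interval -0.08 to 0.39), and without saline array 2 it was 0.08. It was 0.03 without ethanol array 2 and saline array 2, 0.10 without ethanol array 2 and 0.07 after cyclic loess. Gng2, a widely used partner of beta subunits in brain, stood at 8.56, 8.48 and 8.53 in ethanol, against 8.64, 8.34 and 8.52 in saline. Its ethanol arrays lay within the range of the saline arrays, and the difference was 0.02 ± 0.09 (SE; limma adjusted p = 0.970). It was 0.09 without saline array 1 and -0.06 without saline array 2. Gng4, another neuronal subunit, had values of 8.05, 8.15 and 8.15 in ethanol and 8.16, 8.08 and 8.17 in saline, with a difference of -0.02 ± 0.07 (SE; limma adjusted p = 0.967).

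Gng7, which in the striatum joins the olfactory-type alpha subunit Gnal in stimulating adenylyl cyclase, stood at 8.36, 8.43 and 8.46 in ethanol, against 8.53, 8.41 and 8.13 in saline. The spread was wider in saline (SD 0.21) than in ethanol (SD 0.05), with saline arrays on both sides of the ethanol arrays. The difference was 0.06 ± 0.12 (SE; limma adjusted p = 0.941), and without saline array 3, the lowest, it was -0.05. Without saline array 1 it was 0.15, and quantile normalization and cyclic loess both gave 0.02.

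Of the members with a broad distribution, Gng10 had values of 8.53, 8.46 and 8.48 in ethanol and 8.55, 8.56 and 8.37 in saline. The difference was -0.001 ± 0.083 (SE; limma adjusted p = 0.999), with a 95% interval of -0.20 to 0.20. Gng11, a farnesylated subunit found in endothelium among other tissues, stood at 8.15, 8.38 and 8.10 in ethanol, against 8.05, 8.18 and 7.93 in saline. In both groups array 2 was the highest and array 3 the lowest, and the groups overlapped. The difference was 0.16 ± 0.11 (SE; limma adjusted p = 0.862); it was 0.07 without ethanol array 2 and 0.09 without saline array 3.

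Gng12, a broadly expressed subunit that protein kinase C can phosphorylate, had 2 rows. The row 17459250 had values of 9.55, 9.58 and 9.35 in ethanol and 9.60, 9.27 and 9.33 in saline. The row 17467310 stood at 6.08, 5.89 and 6.00 in ethanol, against 5.91, 6.04 and 5.76 in saline. The rows differed by like amounts, 0.09 ± 0.12 and 0.09 ± 0.10 (SE; limma adjusted p = 0.905 and 0.900), but their arrays did not fall in the same order: saline array 1 was the highest of all in the first row and saline array 2 the highest of its group in the second. Without ethanol array 2 and saline array 2 the first row stood at -0.01 and the second at 0.21, and without saline array 1 the first stood at 0.19. The first was 0.03 without saline array 2, and the second 0.01 without saline array 3 and 0.04 without ethanol array 1. Quantile normalization gave 0.04 and 0.13 for these rows, and cyclic loess 0.02 and 0.13.

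Gngt2, the subunit of cone photoreceptor transducin, had values of 6.88, 6.81 and 6.72 in ethanol and 6.84, 6.83 and 6.88 in saline. The difference was -0.05 ± 0.08 (SE; limma adjusted p = 0.930), with -0.004 without ethanol array 3 and -0.087 without ethanol array 1. Photoreceptor markers were low, with 1 of 5 measured markers above the median of all rows, and that marker was Gnat1. The members Gng8, of olfactory and vomeronasal neurons, and Gngt1, of rods, were not in the list of 10 but had a row each. Gng8 stood at 5.83 ± 0.14 on ethanol arrays and 5.98 ± 0.09 on saline arrays, and Gngt1 at 3.38 ± 0.12 on ethanol arrays and 3.43 ± 0.09 on saline arrays (SD, n = 3 each). Their differences were -0.15 ± 0.10 and -0.05 ± 0.09 (SE), and neither passed the test (limma adjusted p = 0.860 and 0.939).

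**Figure D2:**
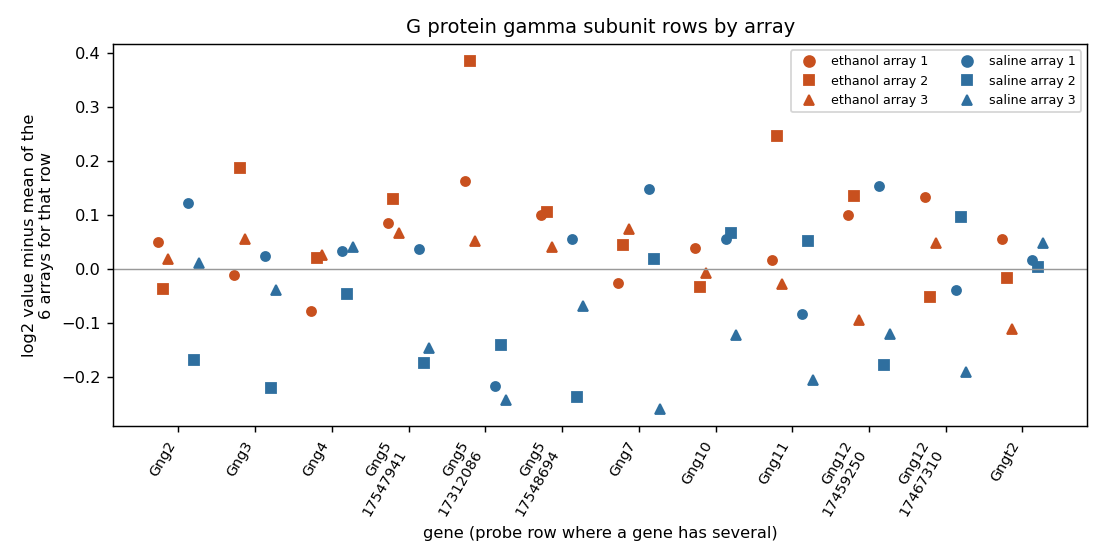
Log2 value minus the mean of the 6 arrays for each of the 12 gamma subunit rows (vertical axis), with ethanol arrays left of saline arrays within each row and a symbol for each array number. Outside Gng5 the symbols of the groups overlap in every row.

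Taking 1 row a gene, that with the highest mean, 6 of 9 gamma subunit genes were higher and 3 lower in ethanol, with a median difference of 0.06. Without Gng5 these were 5 higher and 3 lower, with a median of 0.04. Of all 22180 genes 57.2% were higher, with a median of 0.02, and of the 13676 genes brighter than the median row, where all 9 members lie, 67.8% were higher, with a median of 0.04. The family median was 0.15 without saline array 1, 0.03 without saline array 2 and 0.03 without saline array 3, and also 0.04 without ethanol array 3. Scaling moved it as well: quantile normalization gave 0.021 with 5 of 9 genes higher, cyclic loess 0.019 with 5 of 9, and centring on array medians 0.10 with 8 of 9. The median of the brighter genes was 0.017, 0.0092 and 0.080 in those settings. The 95% intervals of the 9 other rows reached from -0.23 to 0.41, so a missed threshold does not show that these genes were alike in both groups.

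Beta subunits pair with the gamma subunits, and 4 of 5 had a row of their own. Gnb1, the main partner in brain, stood at 11.97, 12.08 and 11.96 in ethanol, against 12.03, 11.77 and 11.93 in saline, a difference of 0.09 ± 0.09 (SE). Gnb4 and Gnb5 differed by 0.02 ± 0.10 and 0.08 ± 0.09 (SE). In the other direction Gnb3, of cone and taste cells, had values of 6.18, 5.95 and 6.12 in ethanol and 6.19, 6.21 and 6.31 in saline. Its groups did not overlap, with ethanol array 1 and saline array 1 close together, and the difference was -0.15 ± 0.09 (SE). Over all genes 4.72% had ethanol wholly below saline. None of the 4 passed the test in limma (adjusted p from 0.857 to 0.974). Their median difference was 0.05, and -0.04 without ethanol array 2 and saline array 2; without ethanol array 2 alone it was 0.006 and without saline array 2 alone -0.004. It was -0.010 under quantile normalization, with 2 of 4 genes higher, and -0.016 after cyclic loess, with 1 of 4.

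Alpha subunits, effectors and regulators showed 0 called genes in either direction in limma, the same share as the table. Of 16 alpha subunit genes 14 were higher and 2 lower in ethanol (median 0.07), and 11 of 16 were higher under quantile normalization (median 0.05) and after cyclic loess (median 0.04). The median was 0.12 without saline array 1 and 0.04 without saline array 2. Among them Gna11, which activates phospholipase C, stood at 9.93 ± 0.04 on ethanol arrays and 9.76 ± 0.24 on saline arrays, and Gnal at 9.31 ± 0.09 on ethanol arrays and 9.17 ± 0.16 on saline arrays (SD, n = 3 each). Groups did not overlap for Gnai3 and Gnas, higher by 0.13 ± 0.07 and 0.07 ± 0.07, and for Gna14, lower in ethanol, with a difference of -0.23 ± 0.09 (SE), and these were named after their values were seen. Over all genes 5.74% had groups apart with ethanol above and 4.72% with ethanol below. For the counts of higher genes here and in the lists below, 67.8% of the brighter genes were higher (median 0.04). Under quantile normalization 59.1% of the brighter genes were higher, and after cyclic loess 55.0%.

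Genes listed as effectors of the dimer, taken by gene family, were higher in 15 of 21 (median 0.04). Whether the dimer acts on each of them was not examined. Under quantile normalization and cyclic loess 11 of 21 were higher, with medians of 0.0087 and 0.0031. In 6 of the 21, ethanol lay wholly above saline, beside 5.74% of all genes and 993 of the 13676 brighter genes. Of the 21, 18 are such brighter genes, and in 0 of the 21 did ethanol lie wholly below. The 6 include Pik3cg, which is not a brighter gene. The GIRK channel gene Kcnj9 had values of 8.90, 8.89 and 8.96 in ethanol and 8.80, 8.62 and 8.72 in saline, a difference of 0.21 ± 0.08 (SE; limma adjusted p = 0.857). The other GIRK genes Kcnj3, Kcnj5 and Kcnj6 differed by 0.14 ± 0.09, -0.15 ± 0.12 and 0.08 ± 0.10 (SE), values seen before these were named. The adenylyl cyclase gene Adcy8 stood at 8.54 ± 0.07 on ethanol arrays and 8.35 ± 0.12 on saline arrays (SD, n = 3 each).

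The R7 family of RGS proteins, GTPase activators that bind Gnb5 in place of a gamma subunit, had 5 of 8 genes higher with their partners (median 0.03). That median was 0.08 without saline array 1, -0.02 without saline array 3 and 0.007 without ethanol array 2. Gpr158, a membrane partner of these proteins, differed by 0.20 ± 0.09, and Rgs11 by -0.16 ± 0.09 (SE). The CCT chaperonin folds beta subunits, and phosducin-like protein helps them join gamma subunits. Of 17 genes of assembly and regulation 13 were higher (median 0.08; 0.020 under quantile normalization and 0.011 after cyclic loess), among them the CCT subunits Cct7 and Cct4, by 0.23 ± 0.09 and 0.14 ± 0.10 (SE). Of 9 genes of prenylation and CAAX processing 8 were higher (median 0.12), and 7 of 9 under quantile normalization (median 0.08) and cyclic loess (median 0.07). Ggps1, which makes geranylgeranyl diphosphate, differed by 0.19 ± 0.11, and Fntb, the beta subunit of farnesyltransferase, by 0.17 ± 0.10 (SE). Without ethanol array 2 and saline array 2 the medians of the assembly and prenylation lists were 0.03 and 0.05. Every gene of these lists had an adjusted p of at least 0.857 in limma. Ethanol lay wholly above saline in 2 of 8 R7 genes, 1 of 17 assembly genes and 1 of 9 prenylation genes. It lay wholly below in 0 genes of these 3 lists. Over all genes these shares were 5.74% above and 4.72% below. Of the 13676 brighter genes 993 had ethanol wholly above and 362 wholly below. At an unadjusted p under 0.05 in limma were Gna14, Kcnj9 and Cct7, named for it after their values were seen. These are 3 of 75 list genes (4%), beside 3.18% of all genes and 258 of the 13676 brighter genes. Gna14 is not among the brighter genes.

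**Figure D3:**
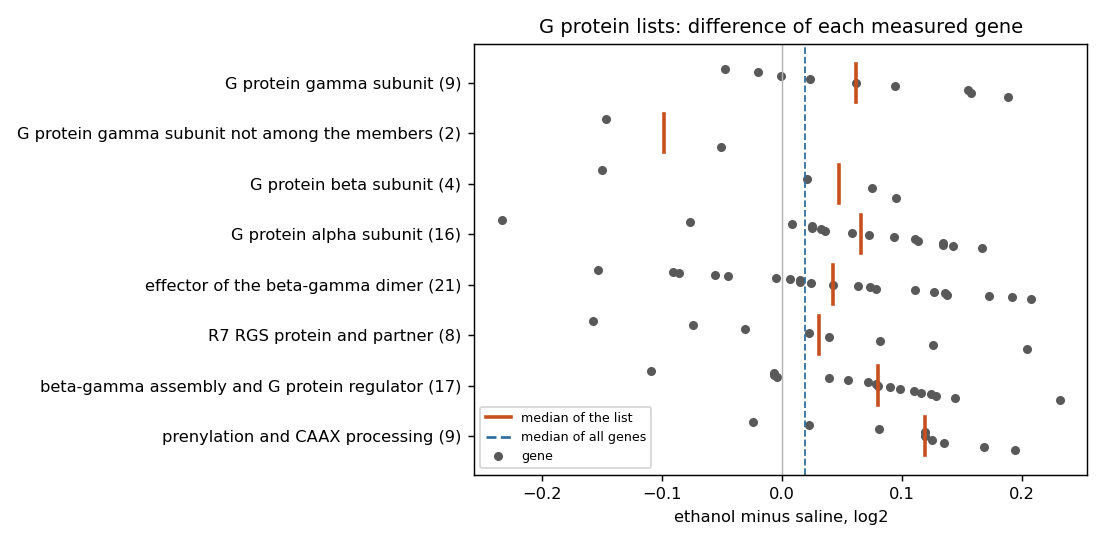
Difference of ethanol minus saline on the log2 scale (horizontal axis) for each measured gene of the gamma subunit list and 7 other G protein lists, with the number of genes in brackets; red bars give list medians and the dashed line the median of all genes, 0.02. Most points lie within 0.20 of 0 on either side, and the median of the prenylation list is 0.12.

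Markers of other cell types were set beside these genes. In bulk tissue, fewer cells of a type and less RNA per cell cannot be told apart. For the counts that follow, 67.8% of all brighter genes were higher in ethanol. Of 10 astrocyte markers 10 were higher in ethanol (median 0.10; 0.034 under quantile normalization, 0.030 after cyclic loess, and 0.019 with 6 of 10 higher without ethanol array 2 and saline array 2), with a log2 summed level over the list of 14.23 to 14.36 in ethanol and 14.12 to 14.29 in saline. Of 10 endothelial and mural markers 9 were higher (median 0.12; 0.07 under quantile normalization, 0.20 without saline array 1 and 0.05 without saline array 2), with summed levels of 11.88 to 12.02 in ethanol and 11.75 to 11.95 in saline. Oligodendrocyte markers were higher in 8 of 9 (median 0.03), with summed levels of 14.04 to 14.42 in ethanol and 14.07 to 14.31 in saline, but in 2 of 9 under quantile normalization, 1 of 9 after cyclic loess, 0 of 9 without ethanol array 2 and 2 of 9 without saline array 3. Microglial markers were higher in 4 of 9 (median -0.04), and in 7 of 9 without saline array 1 (median 0.08), with summed levels of 11.15 to 11.21 in ethanol and 11.14 to 11.31 in saline. Cerebellar neuron markers were higher in 10 of 13 (median 0.08), in 7 of 13 under quantile normalization and in 4 of 13 after cyclic loess. Hippocampal neuron markers were higher in 6 of 14 (median -0.01), and in 7 of 14 under quantile normalization and after cyclic loess. The part of these cells in the gamma subunit values was not tested. An array has no true 0, so no marker can be said to be absent.

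**Figure D4:**
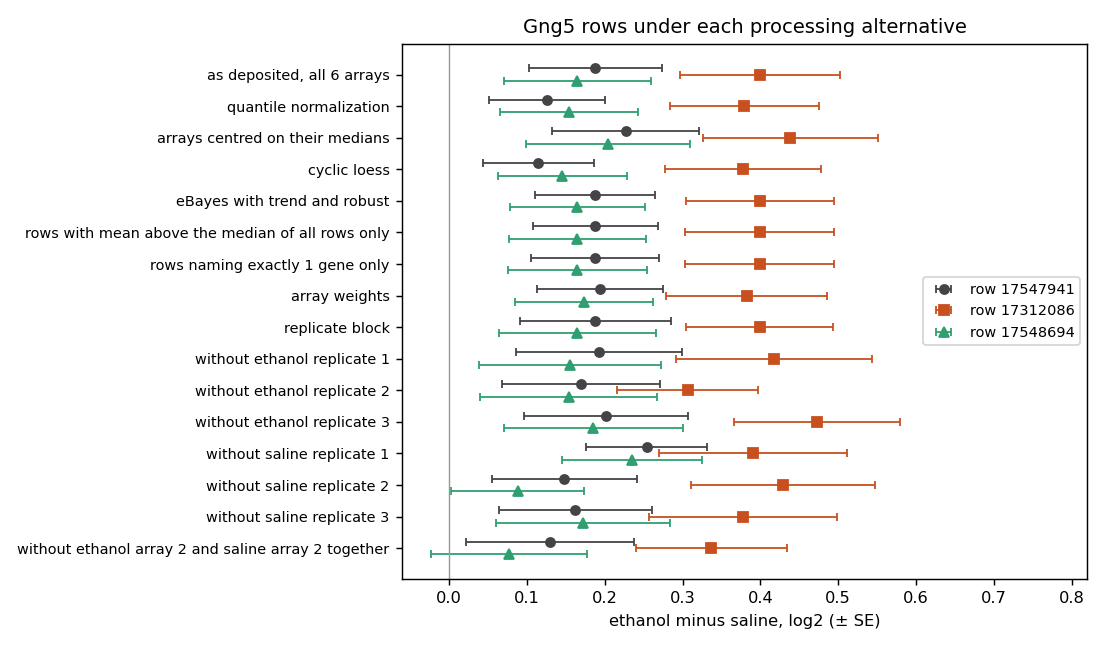
Difference of ethanol minus saline on the log2 scale ± SE (horizontal axis) of the 3 Gng5 rows under each processing alternative and with arrays left out (vertical axis). Row 17312086 stays between 0.31 and 0.47, row 17547941 between 0.11 and 0.25 and row 17548694 between 0.08 and 0.23.

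Gng5 kept its direction in every setting tried. Row 17312086 had differences of 0.31 to 0.47 with 1 array left out, the lowest without ethanol array 2. Row 17547941 ran from 0.15 to 0.25 and row 17548694 from 0.09 to 0.23, each lowest without saline array 2 and highest without saline array 1. Without ethanol array 2 and saline array 2 these 2 rows stood at 0.13 and 0.08, and cyclic loess gave 0.11 for row 17547941. For the 2 rows whose groups do not overlap, leaving out an array cannot turn the direction, so this is no sign of stability.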

How the data were processed

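Total RNA (200 ng per array) was amplified, labelled with biotin and hybridized to Affymetrix whole-transcript arrays, per the labels' protocols. The authors deposited log2 values, 1 column for each of 6 arrays and 41345 rows; the log2 scale was read from their range, and the background correction, summarization and normalization are not given in the sources used here. The genome build was mm10, per the submitters' processing notes. Platform annotation gave 23521 rows 1 gene, 1814 rows several and 16010 none; rows with several were not used for genes. All 12 member rows matched RefSeq symbols of GRCm38 by Entrez identifier. No protein sequences were used.

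Every row was fitted in R 4.3.3 with the lmFit and eBayes functions of limma 3.58.1 (two-sided, no covariate, no filter), with Benjamini-Hochberg adjustment over all rows at 0.05, and 4 residual plus 2.94 prior degrees of freedom. The fit was run on simulated data with differences larger than any reported here. That check does not bear on differences of this size. The number of arrays limits the precision. A gene with several rows was represented by the row with the highest mean, except Gng5. Named were every member row and beta subunit, the 2 genes of each other G protein list with the largest difference among those above the median of all rows, the 5 profiles closest to Gng5 (root mean square difference of centred values), Gng5's 3 nearest named protein-coding genes on each side, and markers. The members and lists were chosen with earlier results of these data known. The main fit did not pair arrays by replicate number, and pairing could not be judged with 3 arrays a group. Alternatives were other scalings, priors, row filters, array weights, a replicate block, the mean of a gene's rows and leaving out arrays.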

Additional observations from a re-analysis of the deposited data

How the results depend on the processing

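Rows called by limma numbered 0 in each of the other settings that kept all arrays, 0 without ethanol array 2 and saline array 2 (chosen after seeing the data, as the arrays with the widest and narrowest spread) and 0 to 1 leaving out 1 array. Gamma subunit genes higher in ethanol numbered 5 to 7 leaving out 1 array and 5 to 8 otherwise, and no G protein list gene was called in any setting. The members near 0 changed sign: Gng2 was at -0.019 under quantile normalization, -0.024 after cyclic loess and -0.032 without arrays 2; Gng4 was at 0.019 with arrays centred on their medians; Gng10 was at 0.038 with centring, 0.013 with array weights and 0.049 without arrays 2; and Gng12 row 17459250 was at -0.014 without arrays 2. Leaving out 1 array gave -0.055 to 0.090 for Gng2, -0.048 to 0.013 for Gng4, -0.063 to 0.032 for Gng10 and -0.053 to 0.15 for Gng7. Centring put the median row at 0.04, which moves values up by construction; the cause of the other changes was not tested. Correlations of deviations between arrays of the same replicate number were 0.10, -0.06 and 0.04 for numbers 1 to 3. Of 6 arrays 3 correlated best with their own number. With 3 arrays a group these values cannot show whether the arrays were matched. With the replicate block 0 rows were called and Gng5 row 17312086 stood at 0.40 ± 0.09 (SE).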

Other observations

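Rows that name a gamma subunit together with another gene were used in no comparison. The row annotated to Gng5, Gng5-ps and Gm13342 together stood at 5.67, 5.59 and 5.67 on ethanol arrays 1 to 3, against 5.82, 5.83 and 5.62 on saline arrays 1 to 3, a difference of -0.11 ± 0.09 (SE of the limma fit), opposite in sign to the 3 rows that name Gng5 alone. The groups overlapped. The 2 rows annotated to Chtf18 and Gng13 differed by 0.16 ± 0.10 and 0.06 ± 0.09 (SE), with overlapping groups in both.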
